A study of Mus musculus with 11 samples.

Results

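Skin tumors that arose in mice lacking Dlx3 were compared with tumor-free skin of the same genotype. The comparison takes 5 Dlx3 KO tumors and 3 Dlx3 KO skins, 8 of the 11 libraries of the series, and covers the 14233 of 24974 genes whose mean over the 11 libraries was at least 0.5 RPKM (reads of a gene scaled to its length and to the size of the library). Both groups came from DLX3cKO mice, which carry a conditional deletion of Dlx3, and both had been treated on the back skin with DMBA, a carcinogen that is activated in skin and mutates the Ras genes of keratinocytes. The treatment was 3 doses, each of 100 µg DMBA in a volume of 200 µl, spaced by 1 week, with collection at week 31. The Dlx3 KO skin was whole skin without a lesion and is the reference throughout. The 3 WT skins had the same treatment and are shown only as a second view of skin without a tumor, though they share in the estimate of the spread. Which Cre deletes Dlx3, how old the mice were and which animal gave which library are not stated in the labels. Several tumors could thus come from 1 mouse, or a tumor and a skin, and the p-values speak for the spread of these libraries alone.

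The epidermis is a stratified epithelium in which basal cells divide and express keratins 5 and 14, while cells above them stop dividing, express keratins 1 and 10 and end as cornified cells sealed by a protein envelope and lipids. Wounded and hyperproliferative epidermis uses keratins 6 and 16 and small proline-rich proteins instead, and mucosal epithelium, which does not cornify in the same way, uses keratins 4 and 13. DLX3, a homeodomain protein, regulates genes of terminal differentiation in keratinocytes and of the growing hair. Whole skin also holds hair follicles, fat, nerve, vessels, immune cells and, in the mouse, a sheet of skeletal muscle below the fat.

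Dlx3 itself was at 4.08, 8.88 and 6.72 RPKM in Dlx3 KO skins 1 to 3 and at 4.16, 7.61, 7.52, 1.93 and 1.34 RPKM in tumors 1 to 5, whereas the libraries labelled WT skin 1, 2 and 3 had 49.9, 7.35 and 89.9 RPKM. The library labelled WT skin 2 lay within the range of the knockout. RPKM are summed over all exons and the labels do not name the deleted one, which limits what this check can show. Between tumors and Dlx3 KO skins Dlx3 did not pass (log2 fold change -0.68, limma adjusted p = 0.591). The 8 libraries compared had 42536182 to 75707445 alignments each. Correlations of log2 values ran from 0.965 to 0.980 among the skins, from 0.874 to 0.972 among the tumors and from 0.839 to 0.948 between them. Dlx3 KO skins 2 and 3 and tumor 5 came from a first sequencing run and the other 5 libraries from a second, so the first run holds 1 tumor and the second 1 skin. Xist was low and Ddx3y high in tumors 3 and 4 only, while all 3 skins had high Xist, so sex is not balanced. Tumor 5 had 11833 RPKM of Rn45s, the ribosomal RNA precursor, against 1002 to 3242 RPKM in the other 7. The part of run, sex and Rn45s in the results was not tested beyond the fits given below.

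In tumors 142 genes rose and 933 fell (limma, Benjamini-Hochberg adjusted p under 0.05), which is 0.998% and 6.56% of the genes tested and 7.55% together. Every tumor lay above every Dlx3 KO skin in 662 genes (4.65%) and below in 2105 (14.8%). Tumors thus differed from skin more often by low than by high values. Fewer cells of a type and less RNA per cell cannot be told apart in such bulk samples. The median log2 fold change of all tested genes, taken on log2(RPKM + 0.5) as tumor minus skin, was -0.23. Under median-ratio scaling that median became 0.02 and 342 genes rose and 799 fell, and under quantile normalization it became 0.09 with 487 risen and 634 fallen, so the share of risen genes among the calls went from 13.2% to 30.0% and 43.4%. All 142 risen genes were also called risen under both scalings. Leaving out 1 library at a time gave 35 to 345 risen and 312 to 2522 fallen genes. The highest counts came without tumor 1 and the lowest without Dlx3 KO skin 3. Of the calls, 30 of 142 rises and 295 of 933 falls held in all 8 of these fits. Most calls of single genes are therefore given below with the number of these 8 fits that kept them, the adjusted p in the weakest of them, or both, and counts of called list members are given without tumor 1 where they moved most. Without tumors 1 and 5, 350 genes rose and 2037 fell. Within the first sequencing run, with 1 tumor and 2 Dlx3 KO skins, 159 rose and 1468 fell, and within the second, with 4 tumors and 1 skin, 11 rose and 193 fell. A lone tumor or skin is there assumed to vary like the other groups. With run as an added term 139 rose and 945 fell, of which 95 and 693 were among the 142 and 933. Among the tumors and Dlx3 KO skins with high Xist, with all WT skins kept, 40 rose and 325 fell.

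**Figure D1:**
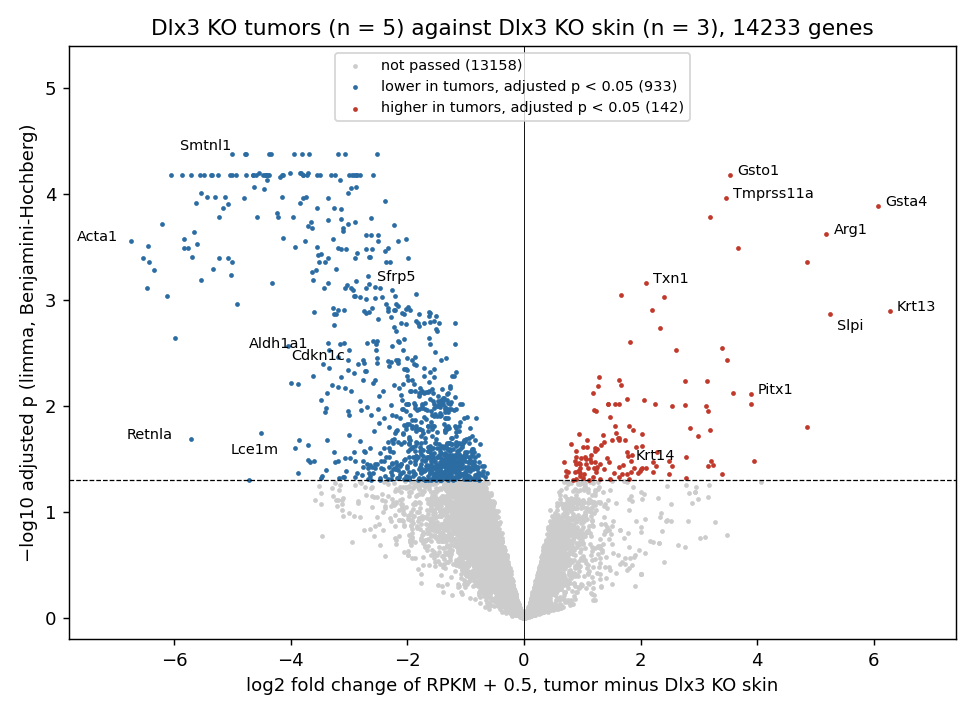
Each point is 1 of the 14233 tested genes, placed by its log2 fold change (tumor minus Dlx3 KO skin) and by −log10 of its limma adjusted p, with the dashed line at 0.05. The 933 fallen genes (blue) outnumber the 142 risen (red), and Gsta4, Krt13 and Arg1 lie far to the right.

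The 12 largest rises were of Krt13, Gsta4, Slpi, Arg1, Sprr3, Sprr2k, Sptssb, Sh2d5, Pitx1, Tmprss11b, Mmp13 and Gsto1, genes of several roles. Krt13 (chromosome 11, 100117327 to 100121566, minus strand; GENCODE M21 on mm10, as all positions here), the keratin of mucosal epithelium, was at 2.22, 1.66 and 1.58 RPKM in the 3 skins and at 67.02, 256, 1374, 47.9 and 156 RPKM in tumors 1 to 5. All tumors lay above all skins, and the tumors differed among themselves by more than the skins did. Its log2 fold change was 6.27 ± 0.88 (SE; limma adjusted p = 0.00126, at most 0.0108 in the 8 fits). Gsta4 (chromosome 9, 78182774 to 78209349, plus strand), a glutathione transferase that clears products of lipid peroxidation, was at 5.63, 18.7 and 19.99 RPKM in skin and at 440.0, 677, 1689, 676 and 1799 RPKM in tumors (6.08 ± 0.62, adjusted p = 0.000129, at most 0.001005). Gsto1 (chromosome 19, 47854970 to 47864790, plus strand), a glutathione transferase of another class, had the smallest p among the risen genes. It was at 54.9, 48.2 and 64.7 RPKM in skin and at 367, 545, 1208, 670.0 and 701 RPKM in tumors (3.53 ± 0.32, adjusted p = 6.60e-05, at most 0.000802). Neither gene came near to overlapping between the groups, and both were lowest in tumor 1.

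Slpi (chromosome 2, 164354070 to 164389095, minus strand), a secreted inhibitor of neutrophil elastase, was at 17.4, 12.8 and 9.42 RPKM in skin and at 567, 677, 2031, 164 and 253 RPKM in tumors (5.24 ± 0.75, limma adjusted p = 0.00135, at most 0.0128). Arg1 (chromosome 10, 24915221 to 24927484, minus strand), arginase 1, which turns arginine into ornithine and urea, was at 10.8, 3.33 and 1.37 RPKM in skin and at 120.0, 182, 235, 160.4 and 116 RPKM in tumors (5.19 ± 0.58, adjusted p = 0.000235, at most 0.00165). In Arg1 the tumors lay close together while the skins differed widely. Pitx1 (chromosome 13, 55825051 to 55836192, minus strand), a homeobox factor of hind limb and oral epithelium that is known from squamous carcinoma, was at 3.45, 6.70 and 13.5 RPKM in skin and at 78.3, 141, 241, 37.9 and 145 RPKM in tumors (3.88 ± 0.71, adjusted p = 0.00765, at most 0.0434). Sh2d5 (chromosome 4, 138250403 to 138261332, plus strand), an adaptor protein, was at 0.652, 0.489 and 0.599 RPKM in skin and at 2.31, 25.96, 63.7, 11.2 and 18.9 RPKM in tumors, and its call was lost without Dlx3 KO skin 3 alone (3.90 ± 0.74, adjusted p = 0.00949 and 0.0513 there). Sptssb (chromosome 3, 69819542 to 69859940, minus strand), a subunit of serine palmitoyltransferase, the first enzyme of sphingolipid synthesis, was at 0.0547, 0.209 and 0.0472 RPKM in skin and at 8.13, 11.1, 43.5, 5.43 and 2.06 RPKM in tumors (3.94 ± 0.96, adjusted p = 0.0328). Its call held in 2 of 8 fits (weakest without Dlx3 KO skin 3, adjusted p = 0.130), and 2 of the WT skins, at 7.24 and 9.71 RPKM, lay among the tumors. Such an overlap with WT skin was not the rule: in 104 of the 142 risen genes (73.2%) every tumor also lay above all 6 skins, against 1.80% of all tested genes, and in 650 of the 933 fallen genes (69.7%) every tumor lay below all 6, against 7.04%. These shares describe genes chosen for a difference from the Dlx3 KO skins, 3 of the same 6.

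**Figure D2:**
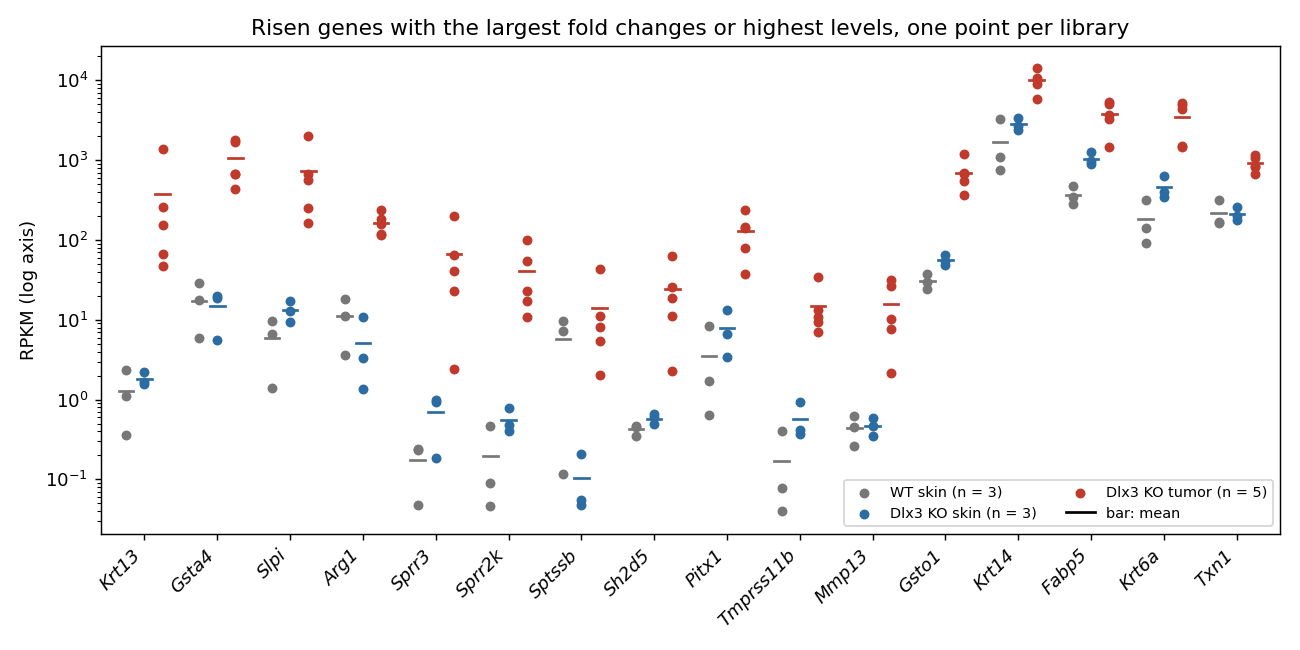
RPKM on a log axis in each library for the 12 risen genes with the largest fold changes and the risen genes highest in tumors, with a bar at each group's mean. All 5 tumors lie above all 3 Dlx3 KO skins in each gene shown, while 2 WT skins reach tumor levels of Sptssb.

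Basal keratinocyte genes were abundant in every tumor. Krt14 was at 3339.9, 2682 and 2405 RPKM in skin and at 5794, 10651, 9115, 14281 and 10198 RPKM in tumors and rose (1.79 ± 0.43, limma adjusted p = 0.0298), but the call held in 1 of 8 fits (weakest without Dlx3 KO skin 3, 0.131). Its partner Krt5, at 1424 to 2792 RPKM in skin and 2877 to 4286 RPKM in tumors, did not pass (log2 fold change 0.84, adjusted p = 0.133). Trp63, the master regulator of stratified epithelium, was at 26.04 to 31.6 RPKM in skin and 30.1 to 40.5 RPKM in tumors (adjusted p = 0.369). Epcam, a further keratinocyte marker, went the other way, with 98.99 to 139 RPKM in skin and 33.7 to 106 RPKM in tumors. It did not pass (log2 fold change -1.17, limma adjusted p = 0.0669). These keratinocyte markers were thus present in every library of both groups. Of 23 tested basal and pan-epithelial genes 2 rose and 0 fell (median log2 fold change -0.06, 0.22 and 0.07 with median-ratio and quantile scaling). The second risen member was Elf3, an ETS factor of differentiating epithelia, at 1.51, 2.42 and 2.36 RPKM in skin and 6.06, 9.20, 10.3, 11.5 and 6.74 RPKM in tumors (1.82 ± 0.28, adjusted p = 0.00250, at most 0.0195). No tumor overlapped a skin in Elf3.

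Among the wound keratins Krt6a (chromosome 15, 101689910 to 101694307, minus strand) was at 396, 346 and 643 RPKM in skin and at 1502, 4403, 5168, 4931 and 1471 RPKM in tumors, and its call was lost only without Dlx3 KO skin 2 (2.76 ± 0.53, limma adjusted p = 0.00974 and 0.0530 there). The neighbouring Krt6b, a near copy, was at 54.4, 115 and 529 RPKM in skin and at 1316, 3873, 4387, 5903 and 759.6 RPKM in tumors and did not pass (log2 fold change 4.07, adjusted p = 0.0517), and reads shared by the copies may have been split between them. Krt16 was at 435, 1022 and 2118 RPKM in skin and at 1846, 6782, 5894, 7848 and 1116 RPKM in tumors (adjusted p = 0.254), with tumor 5 inside the range of the skins. Krt75, a keratin of the hair follicle companion layer that belongs to the same list, fell (-3.10, adjusted p = 0.0463, kept in 2 of 8 fits and at 0.209 without Dlx3 KO skin 3). Among mucosal and simple epithelial keratins Krt13 was the 1 of 10 that rose, and Krt23 fell (62.4 to 105 RPKM in skin, 4.59 to 54.1 RPKM in tumors, adjusted p = 0.0329, kept in 1 fit, 0.123 without Dlx3 KO skin 2). Krt4, which pairs with Krt13 in mucosa, was at 0.434 to 0.533 RPKM in skin and 0.727 to 168 RPKM in tumors (adjusted p = 0.123).

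Genes that tie keratinocytes to the basement membrane and to each other moved in a few members. Lama3, a chain of laminin-332, and Itga6, the alpha chain of the hemidesmosome integrin, were among the 3 of 16 tested genes of the anchoring list that rose, with 0 fallen (list median 0.60 on the log2 scale, and 7 risen without tumor 1). Lama3 was at 2.67, 1.66 and 1.73 RPKM in skin and at 3.45, 6.68, 4.83, 7.30 and 4.93 RPKM in tumors (1.22 ± 0.28, limma adjusted p = 0.0267), and Itga6 at 22.1, 17.8 and 12.1 RPKM in skin and at 21.8, 35.4, 45.9, 35.9 and 38.5 RPKM in tumors (1.01 ± 0.28, adjusted p = 0.0479). In tumor 1 both lay near or within the skin range, and the other 4 tumors lay above it. The calls were kept in 3 fits and 1 fit, with adjusted p of 0.129 and 0.231 without Dlx3 KO skin 3.

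Of 26 junction genes 2 rose and 2 fell, the falls at a share not far from the 6.56% of all tested genes, with 9 fallen without tumor 1. Dsc2, a desmosomal cadherin, was at 2.77, 4.31 and 4.21 RPKM in skin and at 31.5, 56.7, 103, 10.6 and 30.4 RPKM in tumors (3.12 ± 0.60, limma adjusted p = 0.00987, at most 0.0484 in the 8 fits). Its basal partner Dsg3 was at 6.26, 3.93 and 4.24 RPKM in skin and at 12.9, 23.2, 46.5, 6.16 and 18.96 RPKM in tumors, where tumor 4 overlapped the skins (1.79 ± 0.49, adjusted p = 0.0488, kept in 2 fits, 0.178 without Dlx3 KO skin 3). The connexin Gjb5, which forms gap junctions of differentiating epidermis, fell, with 43.1, 38.1 and 28.1 RPKM in skin and 29.3, 10.3, 8.45, 15.9 and 7.70 RPKM in tumors (-1.47 ± 0.39, adjusted p = 0.0423, kept in 1 of 8 fits, 0.145 without Dlx3 KO skin 2). It overlapped the skins through tumor 1.

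The epidermal differentiation complex on chromosome 3 (90511034 to 93564643) holds most envelope genes side by side, and its families moved in different directions in the tumors. Of its 62 tested genes 3 rose, 8 fell, 31 had a higher and 31 a lower mean log2 value in tumors than in skin. All 14 tested genes of the Lce1 family, which encode late envelope proteins, lay lower in every tumor than in every Dlx3 KO skin (log2 fold changes -3.92 to -3.11), and 4 of them passed. All 6 Lce3 genes, which lie between Lce1 genes and are known from wounded and psoriatic skin, had positive log2 fold changes (1.33 to 3.15), and 0 passed. Of 16 Sprr genes 3 rose and 14 had positive log2 fold changes (median 1.39). The 6 Lce3 genes thus had the opposite sign to the Lce1 genes on both sides of them. At an unadjusted p under 0.05 the counts were 14 of 14 Lce1, 2 of 6 Lce3 and 9 of 16 Sprr genes. Members of the Sprr2 and Lce1 families are near copies, Sprr2a1 and Sprr2a2 carry identical values, and reads could be split among copies, so counts within a family are not independent.

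**Figure D3:**
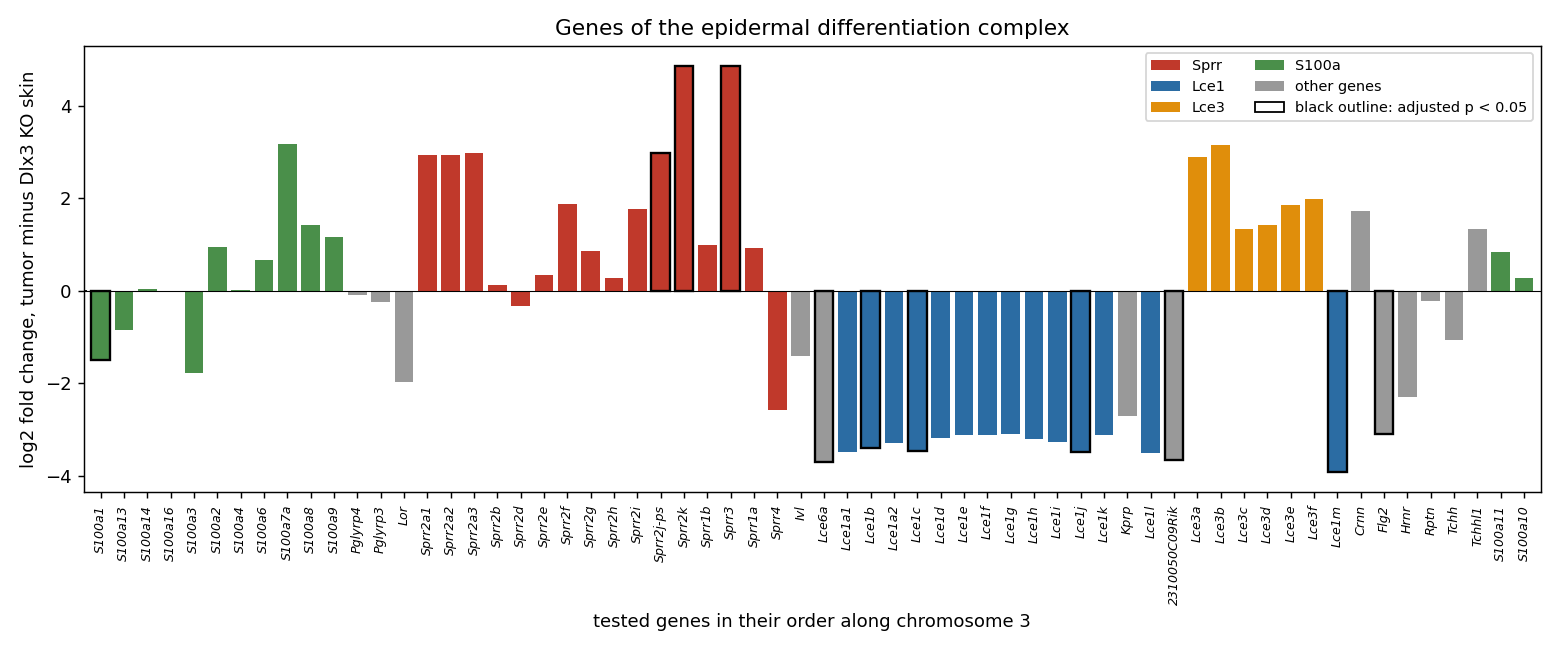
Bars give the log2 fold change (tumor minus Dlx3 KO skin) of the 62 tested genes of the epidermal differentiation complex in their order along chromosome 3, coloured by family, with a black outline where the limma adjusted p was under 0.05. The 14 Lce1 genes all point down, the 6 Lce3 genes among them all point up, and 14 of 16 Sprr genes point up.

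Sprr3 (chromosome 3, 92456502 to 92458720, minus strand), a small proline-rich protein of oral and oesophageal epithelium, was at 0.186, 0.985 and 0.942 RPKM in skin and at 65.4, 23.2, 199, 2.45 and 41.2 RPKM in tumors (4.85 ± 1.01, limma adjusted p = 0.0156). It was kept in 5 of 8 fits and lost without each of the skins (0.0702 without Dlx3 KO skin 1). Sprr2k (chromosome 3, 92432582 to 92433925, plus strand) was at 0.407, 0.487 and 0.791 RPKM in skin and at 23.002, 54.01, 100.0, 10.7 and 17.2 RPKM in tumors (4.85 ± 0.59, adjusted p = 0.000433, at most 0.00402). Both genes were near their floor in all skins, WT included. The abundant Sprr1a, at 432 to 661 RPKM in skin and 354 to 2620.0 RPKM in tumors, and Sprr1b did not pass (adjusted p = 0.295 and 0.493). Summed over the family, Sprr genes were at 1731, 2426 and 2180 RPKM in the skins and at 4758, 5327, 7550 and 14140.5 RPKM in tumors 1 to 4. Tumor 5, at 1376 RPKM, lay below the skins. Within the first run, where tumor 5 is the only tumor, the median log2 fold change of the Sprr list was -0.47, against 2.44 within the second.

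Lce1m (chromosome 3, 93017810 to 93019060, minus strand) fell, with 459, 533 and 227 RPKM in skin and 227, 6.20, 27.04, 14.7 and 15.7 RPKM in tumors (-3.92 ± 0.89, limma adjusted p = 0.0249, kept in 2 fits, 0.105 without Dlx3 KO skin 2). In tumor 1 it was at the level of the lowest skin, and in the other 4 far below. Lce1b (-3.40), Lce1c (-3.46) and Lce1j (-3.48) also fell, with adjusted p of 0.0402, 0.0454 and 0.0478, and each was kept in at most 2 of the 8 fits (Lce1b at 0.147 and Lce1c at 0.155 without Dlx3 KO skin 2). Over the suprabasal and cornified envelope list 0 of 51 rose and 6 fell, with a median log2 fold change of -1.33. The fallen ones besides Lce1 genes were Calm5 (-2.66), a calmodulin-like skin protein, and Flg2 (-3.09), a filaggrin relative, each kept in 1 of 8 fits (0.153 and 0.161 in the weakest). The count was 21 without tumor 1 and 0 without tumor 5. The summed level of the list was 46589, 51103 and 43227 RPKM in the skins and 51788, 23209, 19752, 43183 and 3903 RPKM in tumors 1 to 5. In this sum tumors 1 and 4 were near the skins and tumor 5 was lowest. The Lce1 genes alone summed to 3002 to 6341 RPKM in the skins and to 2292, 77.5, 734, 566 and 195 RPKM in tumors 1 to 5. The median of the whole list was -3.60 within the first run and -0.61 within the second.

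Of 32 enzymes of the lipid barrier 1 rose and 2 fell, the falls at a share not far from the 6.56% of all tested genes. Negative log2 fold changes were seen in 28 (median -0.88, -0.61 and -0.64 with median-ratio and quantile scaling). The count of falls depended on single libraries and on the run, with 8 fallen without tumor 1, 8 with run as a term, 17 within the first run and 0 within the second. Beside Sptssb, which rose, the fatty acid elongase Elovl6 fell (51.02 to 64.2 RPKM in skin, 7.81 to 33.3 RPKM in tumors, limma adjusted p = 0.0223, kept in 4 fits, 0.0808 without Dlx3 KO skin 1). The lipoxygenase Alox12e had a log2 fold change of -2.55 (adjusted p = 0.0386, kept in 1 fit, 0.142 without Dlx3 KO skin 1). Fabp5, the epidermal fatty acid-binding protein and 1 of the most abundant risen genes, was at 894, 991 and 1263 RPKM in skin and at 3250.5, 5417, 3652, 5068 and 1472 RPKM in tumors (1.73 ± 0.38, adjusted p = 0.0210, kept in 4 fits, 0.0818 without Dlx3 KO skin 1). Tumor 5 was close to the highest skin and the other tumors well above.

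Membrane-bound serine proteases of the Tmprss11 cluster on chromosome 5 (86302217 to 86745815) rose together. Of the 6 tested genes Tmprss11d, Tmprss11a, Tmprss11g, Tmprss11b and Tmprss11e rose, and Tmprss11f, which lies between Tmprss11g and Tmprss11b, fell. These are airway trypsin-like proteases of squamous and airway epithelia. Tmprss11a was at 0.232, 0.265 and 0.824 RPKM in skin and at 14.1, 8.20, 12.02, 11.04 and 4.94 RPKM in tumors (3.46 ± 0.35, limma adjusted p = 0.000109, at most 0.00131). Tmprss11g was at 2.18, 0.723 and 1.73 RPKM in skin and at 16.8, 21.7, 8.73, 19.9 and 23.5 RPKM in tumors (3.19 ± 0.34, adjusted p = 0.000164, at most 0.00134). Tmprss11b was at 0.418, 0.375 and 0.925 RPKM in skin and at 13.5, 10.96, 34.5, 9.31 and 7.002 RPKM in tumors (3.67 ± 0.43, adjusted p = 0.000320, at most 0.00318). The 3 genes separated the groups in every library and held in all 8 fits. The Dlx3 KO skin mean of Tmprss11a, 0.441 RPKM, was below the filter of 0.5 RPKM, which its values in tumors let it pass. Tmprss11d (2.76) held in 8 and Tmprss11e (1.63) in 4 of 8 (weakest adjusted p 0.0301 and 0.0909). Tmprss11f had a log2 fold change of -1.77 (adjusted p = 0.0381, kept in 1, weakest 0.147) and overlapped the skins.

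Kallikreins, secreted proteases that free cornified cells by cutting desmosomes, lie in a cluster on chromosome 7 (43690418 to 43851181), where 3 of 10 tested genes rose and 0 fell. Klk14 was at 17.7, 18.9 and 23.8 RPKM in skin and at 359.8, 243, 657, 99.3 and 34.04 RPKM in tumors (3.15 ± 0.79, limma adjusted p = 0.0366). Klk12 was at 1.17, 3.61 and 5.19 RPKM in skin and at 46.6, 35.1, 122, 17.6 and 8.39 RPKM in tumors (3.23 ± 0.81, adjusted p = 0.0360) and Klk10 at 40.98, 46.5 and 37.5 RPKM in skin and at 229, 241, 726, 98.8 and 82.4 RPKM in tumors (2.26 ± 0.57, adjusted p = 0.0368). All 3 were highest in tumor 3 and lowest in tumor 5, and tumor 5 still lay above the skins. Their calls held in 3, 3 and 4 of 8 fits and went to 0.123 without Dlx3 KO skin 2, 0.135 without Dlx3 KO skin 1 and 0.144 without Dlx3 KO skin 3. With run as an added term 0 of the list of 16 kallikreins and inhibitors rose in limma, and the list median was -1.20 within the first run and 0.63 within the second. Klk5 and Klk7, the kallikreins best known from cornified epidermis, lay lower in every tumor than in every skin and did not pass (log2 fold changes -2.06 and -1.38, adjusted p = 0.136 and 0.216).

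Protease inhibitors of serpin clade B moved both ways. Serpinb1a, an inhibitor of neutrophil proteases, was at 10.4, 13.5 and 14.9 RPKM in skin and at 32.8, 22.9, 46.97, 31.8 and 30.7 RPKM in tumors and rose (1.29 ± 0.22, limma adjusted p = 0.00525, at most 0.0359). Serpinb7, whose human counterpart is mutated in a palmoplantar keratosis, fell, with 54.3, 44.8 and 30.97 RPKM in skin and 27.1, 2.55, 2.88, 7.56 and 2.04 RPKM in tumors (-2.91 ± 0.68, adjusted p = 0.0272, kept in 2 fits, 0.101 without Dlx3 KO skin 2). Serpinb13 fell with a log2 fold change of -2.07 and was kept in 1 fit (0.163 without Dlx3 KO skin 3). In both fallen serpins tumor 1 was the highest tumor, near or within the skin range.

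Of 27 genes of metalloproteinases and plasminogen activation 2 rose and 2 fell (3 and 6 without tumor 1). The falls were at a share not far from the 6.56% of all tested genes. Mmp13, collagenase 3, which cuts fibrillar collagen, was at 0.583, 0.465 and 0.346 RPKM in skin and at 2.15, 31.7, 10.3, 26.3 and 7.72 RPKM in tumors (3.59 ± 0.66, limma adjusted p = 0.00750, at most 0.0479 in the 8 fits). Mmp10, stromelysin 2, was at 0.0294, 0.0383 and 0.103 RPKM in skin and at 0.275, 11.7, 4.01, 5.86 and 2.51 RPKM in tumors (2.78 ± 0.66, adjusted p = 0.0302, kept in 2 fits, 0.107 without Dlx3 KO skin 3). Both lie in the metalloproteinase cluster on chromosome 9 (Mmp13 at 7272514 to 7283331, Mmp10 at 7502352 to 7510240), and in both tumor 2 was highest and tumor 1 lowest. Mmp10 lay below the filter of 0.5 RPKM in every Dlx3 KO skin, and Mmp13 in Dlx3 KO skins 2 and 3. Their values in tumors let them pass it. The inhibitors Timp3 (35.9 to 45.9 RPKM in skin, 4.18 to 29.8 RPKM in tumors, adjusted p = 0.0264) and Timp4 (3.03 to 4.70 RPKM in skin and 0.182 to 1.75 RPKM in tumors, adjusted p = 0.00882) fell. They were kept in 3 and 7 of 8 fits and went to 0.108 and 0.0620 without Dlx3 KO skin 3.

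The promoters of Mmp13, Mmp10, Sprr2k and Krt13 were chosen from the risen genes after the matches were seen, to show how a match lies in the window, and come from RefSeq (GRCm38.p6, 250 bases before to 50 after the start of transcription, 5′ to 3′ on the strand of the gene), with matches to TGANTCA, the site of the AP-1 dimers of Fos and Jun proteins, in capitals. The motif reads alike on both strands.
Mmp13 (chr9:7272264-7272563, plus strand): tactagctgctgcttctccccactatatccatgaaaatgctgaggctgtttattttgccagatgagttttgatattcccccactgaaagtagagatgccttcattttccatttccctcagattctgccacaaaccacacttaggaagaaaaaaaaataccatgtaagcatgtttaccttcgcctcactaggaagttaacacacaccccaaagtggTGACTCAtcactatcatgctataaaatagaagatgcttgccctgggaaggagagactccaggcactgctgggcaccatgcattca
Mmp10 (chr9:7502092-7502391, plus strand): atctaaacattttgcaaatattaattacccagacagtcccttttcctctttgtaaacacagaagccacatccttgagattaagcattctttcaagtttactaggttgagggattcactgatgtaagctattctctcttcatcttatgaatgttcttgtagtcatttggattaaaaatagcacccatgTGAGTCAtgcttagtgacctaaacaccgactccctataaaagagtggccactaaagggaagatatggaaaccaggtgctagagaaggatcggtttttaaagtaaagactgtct
Sprr2k (chr3:92432332-92432631, plus strand): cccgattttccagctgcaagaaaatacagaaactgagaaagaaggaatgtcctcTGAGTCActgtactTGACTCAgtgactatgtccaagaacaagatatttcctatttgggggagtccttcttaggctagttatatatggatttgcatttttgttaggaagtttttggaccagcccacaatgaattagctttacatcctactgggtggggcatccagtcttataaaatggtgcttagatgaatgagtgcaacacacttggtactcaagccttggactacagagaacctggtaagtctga
Krt13 (chr11:100121517-100121816, minus strand): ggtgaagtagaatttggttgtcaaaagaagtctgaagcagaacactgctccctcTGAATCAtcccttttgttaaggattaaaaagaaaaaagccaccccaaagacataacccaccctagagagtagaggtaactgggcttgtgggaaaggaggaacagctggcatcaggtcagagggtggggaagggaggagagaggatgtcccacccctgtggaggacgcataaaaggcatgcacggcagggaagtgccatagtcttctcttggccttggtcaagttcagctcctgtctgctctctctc
The match starts at position -35 in Mmp13, -63 in Mmp10, -196 and -182 in Sprr2k and -196 in Krt13. The table holds a second promoter of Krt13 (chr11:100120528-100120827, minus strand), with matches at -183 and -34. A promoter was matched for 97 of the 142 risen genes, and 8 of these (8.25%) held the motif, against 11.9% of the 699 matched among the fallen genes, 7.11% of the 11015 matched among all tested genes and 8.97% of all 27025 genes with a promoter in the table. The other 4 genes were Tmprss11d, Glyat, Fam110c and 2010204K13Rik. The share among risen genes thus lay between those of the tested genes and of all promoters, and below that of the fallen genes. The genes of the AP-1 factors themselves gave 0 risen and 0 fallen of 12 in limma, 4 of them with an unadjusted p under 0.05.

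Detoxifying enzymes split by family. Of 22 glutathione transferases Gsta4, Gsto1 and Gsta1 rose and 6 fell, Gstm7, Gstm2, Gstm5, Gstt1, Gstt2 and Gstz1. Gsta1, next to Gsta4 on chromosome 9 (78230656 to 78242684), was at 6.95, 6.36 and 7.79 RPKM in skin and at 43.7, 52.01, 276, 38.03 and 61.1 RPKM in tumors (3.19 ± 0.67, limma adjusted p = 0.0169, kept in 5 fits and lost without each skin, 0.0703 without Dlx3 KO skin 2). Gsta2, the third tested gene there and close to Gsta1 in sequence, was at 3.07 to 7.62 RPKM in skin and 1.61 to 12.6 RPKM in tumors (adjusted p = 0.843). Gstm7 fell (1.08 to 1.79 RPKM in skin, 0.187 to 0.544 RPKM in tumors, adjusted p = 0.0153, kept in 7, 0.103 without Dlx3 KO skin 3). The list's median log2 fold change was -0.88, while its summed level was 591 to 680.4 RPKM in the skins and 1343 to 3790.2 RPKM in the tumors, where Gsta4 and Gsto1 made up most of it.

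Among 32 targets of NRF2, the transcription factor of the oxidative stress response, 4 rose and 1 fell (8 risen with either scaling, and 8 risen and 4 fallen without tumor 1). Txn1 (chromosome 4, 57943373 to 57956411, minus strand), thioredoxin, which reduces protein disulphides, was at 179, 262 and 201 RPKM in skin and at 669.6, 849, 825, 1176 and 1081 RPKM in tumors (2.09 ± 0.27, limma adjusted p = 0.000691, at most 0.00687). Nqo1, a quinone reductase, was at 6.66, 3.28 and 3.82 RPKM in skin and at 12.3, 19.7, 43.5, 12.4 and 14.01 RPKM in tumors (1.92 ± 0.44, adjusted p = 0.0241, kept in 5, 0.112 without Dlx3 KO skin 3). Akr1b8, an aldo-keto reductase, was at 9.51, 10.4 and 9.13 RPKM in skin and at 19.5, 42.4, 29.6, 23.8 and 55.2 RPKM in tumors (1.66 ± 0.30, adjusted p = 0.00636, at most 0.0432). The skins did not overlap the tumors in any of these. Gclm, the modifier subunit of the enzyme that starts glutathione synthesis, rose as well (1.83, adjusted p = 0.0415, kept in 3 of 8 fits, weakest 0.144). The secreted glutathione peroxidase Gpx3 fell (77.5 to 148 RPKM in skin, 11.1 to 50.04 RPKM in tumors, adjusted p = 0.0147, kept in 6, 0.0918 without Dlx3 KO skin 3). A core antioxidant response element, TGACNNNGC on either strand, which can overlap an AP-1 site, was in the promoter window of Gclm and of no other of the 6 matched promoters among the 7 risen transferase and NRF2 genes. It was in 13.99% of all promoters and in 16.9% of those of the tested genes.

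Cyp1b1, the cytochrome P450 that activates DMBA in skin, was at 5.34, 6.70 and 5.07 RPKM in skin and at 3.93, 0.154, 0.376, 0.967 and 0.5002 RPKM in tumors and fell (-2.24 ± 0.50, limma adjusted p = 0.0224, kept in 4 fits, 0.0965 without Dlx3 KO skin 2). Tumor 1 was again nearest to the skins. Cyp1a1 was at 2.71 to 3.48 RPKM in skin and 0.163 to 4.17 RPKM in tumors (adjusted p = 0.104). Of the oxidases, Duox1 and its maturation factor Duoxa1, which make hydrogen peroxide at epithelial surfaces, rose (4.98 to 7.41 RPKM in skin and 8.73 to 20.9 RPKM in tumors for Duox1, a log2 fold change of 0.96 for Duoxa1, adjusted p = 0.0352 and 0.0423), each kept in 2 of 8 fits (0.144 and 0.168 without Dlx3 KO skin 2). Cybb, the phagocyte oxidase, fell (2.85 to 3.69 RPKM in skin, 1.05 to 1.73 RPKM in tumors, adjusted p = 0.00964, kept in 6, 0.0690 without Dlx3 KO skin 3), beside the macrophage genes given further on.

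Genes of cell division were higher in tumors than in Dlx3 KO skin by a small amount in most members. The WT skins overlapped the tumors in the summed levels. For mitosis these were 246 to 430 RPKM in Dlx3 KO skins, 363 to 652 RPKM in WT skins and 491 to 792 RPKM in tumors. For DNA replication they were 322 to 379, 356 to 564 and 426 to 576 RPKM. Of 64 mitosis genes 63 had positive log2 fold changes (median 0.76 against -0.23 over all genes), every tumor lay above every skin in 41, and 5 passed, with 0 fallen. Cdc20, the activator of the anaphase-promoting complex, was at 12.3, 23.5 and 17.7 RPKM in skin and at 31.2, 37.9, 59.7, 32.5 and 50.5 RPKM in tumors (1.22 ± 0.28, limma adjusted p = 0.0248, kept in 4, 0.107 without Dlx3 KO skin 1). The others were the kinetochore genes Spc24 (1.21) and Ndc80 (1.24) and the chromosomal passenger genes Birc5 (1.19) and Incenp (0.90), with adjusted p of 0.0387, 0.0393, 0.0468 and 0.0486. These 4 were kept in 1 of 8 fits, with 0.164 for Spc24 without Dlx3 KO skin 3, 0.149 for Ndc80 and 0.178 for Birc5 without Dlx3 KO skin 1, and 0.170 for Incenp in its weakest fit. Under median-ratio and quantile scaling 22 and 38 mitosis genes rose, with 21 without tumor 1 and 14 with run as a term. In the DNA replication list 46 of 47 had positive log2 fold changes (median 0.49) and 2 rose, Tk1, thymidine kinase (1.25), and Rrm2, a subunit of ribonucleotide reductase (0.96), each in 1 of 8 fits (0.149 without Dlx3 KO skin 3, 0.157 without Dlx3 KO skin 1), while 10 rose without tumor 1.

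Regulators of entry into the cycle changed in 3 genes. Ccne1, cyclin E1, which drives entry into S phase with CDK2, was at 1.38, 1.54 and 1.88 RPKM in skin and at 3.49, 7.12, 11.7, 7.04 and 6.01 RPKM in tumors (1.77 ± 0.33, limma adjusted p = 0.00856, at most 0.0433 in the 8 fits). Cdk6, a partner of the D cyclins, rose as well (1.08, adjusted p = 0.0210, kept in 3, 0.114 without Dlx3 KO skin 3). Cdkn1c, the imprinted CDK inhibitor p57, fell, with 9.0001, 10.4 and 11.4 RPKM in skin and 2.48, 1.28, 0.29999, 1.54 and 0.672 RPKM in tumors (-2.75 ± 0.45, adjusted p = 0.00363, at most 0.0271). No tumor overlapped a skin in Ccne1 or Cdkn1c. The other 6 tested CDK inhibitors did not pass, with Cdkn1a at 126 to 157 RPKM in skin and 38.4 to 146 RPKM in tumors (adjusted p = 0.364). Of 22 p53 targets only Plk2 rose (1.07, adjusted p = 0.0351, kept in 2, 0.137 without Dlx3 KO skin 1) and 0 fell.

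Among transcription factors known from squamous carcinoma, Sox15 rose beside Pitx1. Sox15 was at 11.6, 5.29 and 3.31 RPKM in skin and at 13.3, 34.5, 45.7, 35.8 and 31.9 RPKM in tumors (2.25 ± 0.43, limma adjusted p = 0.00964, lost only without Dlx3 KO skin 3 at 0.0684). No tumor overlapped a skin in Sox15. Prdm1, a repressor of terminally differentiating epidermis, fell (-1.32, adjusted p = 0.0397, kept in 1 fit, 0.161 without Dlx3 KO skin 2). Sox2 was at 0.112 to 0.387 RPKM in skin and at 0.287 to 20.3 RPKM in tumors (log2 fold change 2.37, adjusted p = 0.151), and Hmga2 at 0.122 to 0.160 RPKM in skin and 0.226 to 10.1 RPKM in tumors (adjusted p = 0.0746).

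**Figure D4:**
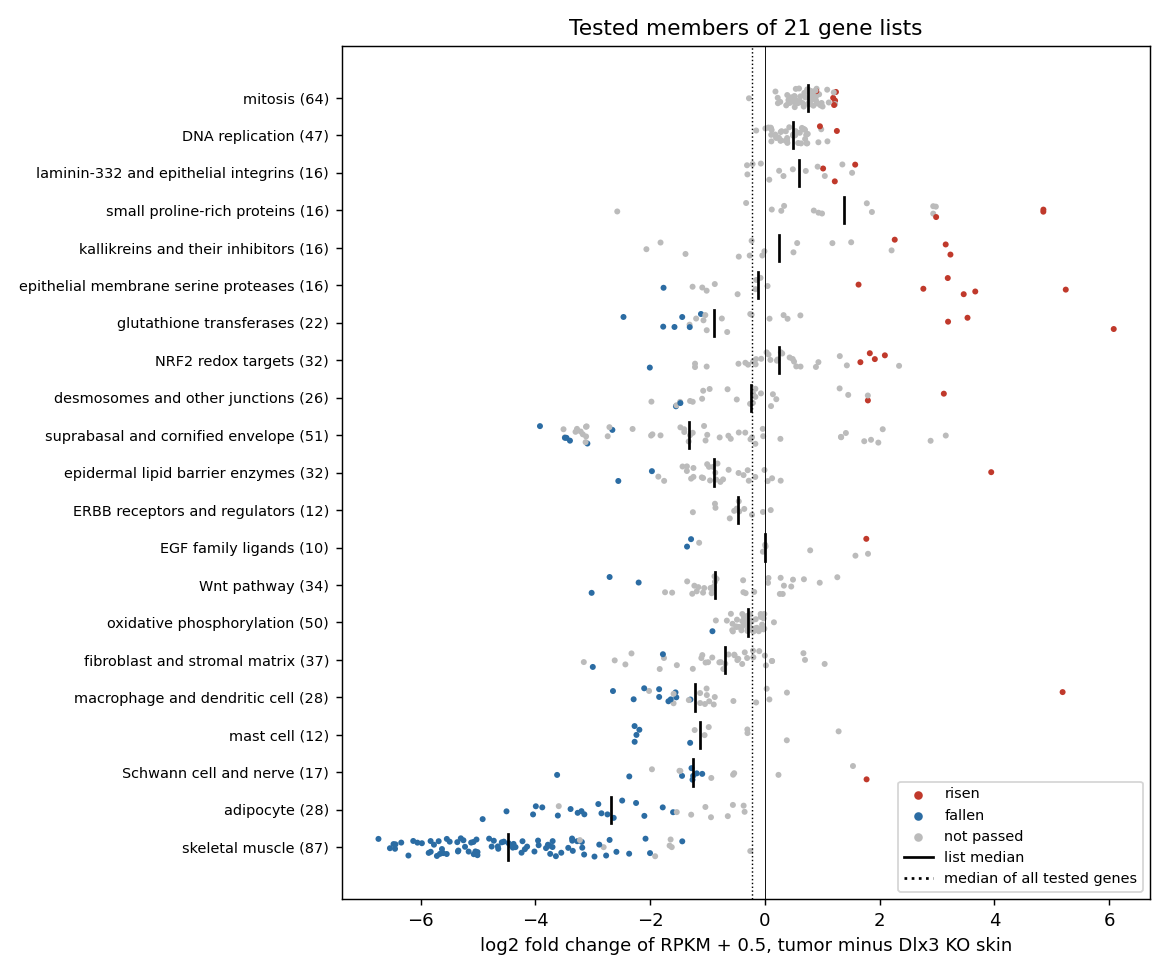
Points are the log2 fold changes (tumor minus Dlx3 KO skin) of the tested members of 21 gene lists, with their number in parentheses, red where risen, blue where fallen and grey where the limma adjusted p was 0.05 or more; bars are list medians and the dotted line is the median of all genes, -0.23. Mitosis genes lie to the right in all members but 1, and skeletal muscle genes lie to the left in all 87.

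The title of the series names EGFR and ERBB2, receptor tyrosine kinases of the EGF family. Egfr was at 5.37, 6.61 and 7.20 RPKM in skin and at 6.47, 4.45, 4.25, 4.30 and 2.999 RPKM in tumors (log2 fold change -0.49 ± 0.28, limma adjusted p = 0.289). Erbb2 was at 28.4, 24.6 and 24.05 RPKM in skin and at 32.7, 19.3, 19.999, 18.2 and 9.50 RPKM in tumors (-0.46 ± 0.37, adjusted p = 0.467) and Erbb3 at 19.9, 15.5 and 13.2 RPKM in skin and at 18.6, 9.33, 11.3, 10.8 and 7.13 RPKM in tumors (-0.53 ± 0.35, adjusted p = 0.361). Their groups overlapped, and of 12 receptors and regulators 0 rose and 0 fell in limma (11 negative, median -0.47, -0.21 and -0.17 with median-ratio and quantile scaling), with 1 at an unadjusted p under 0.05 and 2 fallen without tumor 1. Among the ligands Areg, amphiregulin, was at 3.64, 6.34 and 6.33 RPKM in skin and at 6.08, 22.9, 32.4, 23.999 and 23.2 RPKM in tumors and rose (1.77 ± 0.47, adjusted p = 0.0436, kept in 1 fit, 0.151 without Dlx3 KO skin 1). Tumor 1 lay inside the skin range and the other 4 above it. Hbegf had a log2 fold change of 1.58 (9.67 to 13.4 RPKM in skin and 13.9 to 75.6 RPKM in tumors, adjusted p = 0.0814). Egf (0.942 to 1.75 RPKM in skin, 0.114 to 0.570 RPKM in tumors, kept in 6 fits, 0.0999 without Dlx3 KO skin 3) and Nrg4 (-1.36, kept in 1, 0.184 without Dlx3 KO skin 3) fell. Of 23 Ras genes and feedback regulators of ERK 0 rose and 0 fell in limma, with 7 at an unadjusted p under 0.05 and with 4 risen and 3 fallen without tumor 1.

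Il24 and Il19, cytokines of the IL-20 subfamily, rose from near their floor. They were the 2 tested among 6 genes of the IL-10 and IL-20 cluster. Their Dlx3 KO skin means, 0.0543 and 0.139 RPKM, were below the filter of 0.5 RPKM, which their high values in tumors let them pass. Il24 (chromosome 1, 130882074 to 130887454) was at 0.0437, 0.0186 and 0.101 RPKM in skin and at 0.565, 13.7, 7.10, 5.34 and 3.84 RPKM in tumors (3.16 ± 0.62, limma adjusted p = 0.0112, kept in 6, 0.0533 without Dlx3 KO skin 3). Its neighbour Il19 (130932656 to 130940115) was at 0, 0.166 and 0.250 RPKM in skin and at 0.561, 25.1, 3.50, 5.07 and 2.05 RPKM in tumors (2.79 ± 0.76, adjusted p = 0.0480, kept in 2, 0.144 without Dlx3 KO skin 3). Both were highest in tumor 2 and lowest in tumor 1, as Mmp10 was. Il33, an alarmin of epithelial nuclei, rose, with 6.09, 2.98 and 6.08 RPKM in skin and 8.93, 37.5, 13.7, 35.2 and 13.2 RPKM in tumors (1.83, adjusted p = 0.0326, kept in 2, 0.147 without Dlx3 KO skin 2). Of the same IL-1 family list Il18 (30.5 to 43.3 RPKM in skin, 6.38 to 24.2 RPKM in tumors) and the receptor Il1r1 (5.35 to 6.70 RPKM in skin, 1.80 to 5.15 RPKM in tumors) fell, kept in 2 and 1 fits (0.131 without Dlx3 KO skin 2, 0.156 without Dlx3 KO skin 3). Of 12 neutrophil chemokines and colony-stimulating factors 9 had positive log2 fold changes (median 1.04), with Cxcl2 at 0.230 to 1.57 RPKM in skin and 1.09 to 37.4 RPKM in tumors (adjusted p = 0.102), and 0 rose in limma, against 3 without tumor 1. The 1 called member went the other way, the chemokine Ccl20, which fell (-1.87, adjusted p = 0.0433, kept in 1 fit, 0.155 without Dlx3 KO skin 3). The antimicrobial Defb4 was at 0.248, 0.8002 and 1.26 RPKM in skin and at 28.7, 30.7, 11.2, 5.85 and 1.91 RPKM in tumors and rose (3.21, adjusted p = 0.0332), while Defb6 fell, with 889, 401 and 280.0 RPKM in skin and 185, 60.8, 32.2, 85.7 and 15.9 RPKM in tumors (-3.06, adjusted p = 0.0309). These 2 defensins were kept in 3 and 2 of 8 fits, at 0.119 and 0.119 without Dlx3 KO skin 1.

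Of 34 Wnt pathway genes 3 fell, all in secreted proteins, a share not far from the 6.56% of all tested genes, and 13 fell without tumor 1. Sfrp5, a decoy for Wnt ligands, was at 4.46, 4.76 and 5.51 RPKM in skin and at 1.38, 0.146, 0.0929, 0.197 and 0.272 RPKM in tumors (-2.71 ± 0.36, limma adjusted p = 0.000773, at most 0.00765). Sfrp4, its relative, was at 3.33, 9.47 and 7.55 RPKM in skin and at 2.32, 0.115, 0.0301, 0.130 and 0.190 RPKM in tumors (-3.02 ± 0.51, adjusted p = 0.00458, at most 0.0335). The ligand Wnt11 fell too (-2.20, adjusted p = 0.0338, kept in 1 fit, 0.147 without Dlx3 KO skin 3), and 0 rose. Axin2, a common target, was at 5.32 to 8.37 RPKM in skin and 0.948 to 6.38 RPKM in tumors (adjusted p = 0.124). The BMP antagonist Nog (-1.29, kept in 2, 0.161 without Dlx3 KO skin 3) and the growth factors Fgf22 (8.37 to 12.8 RPKM in skin, 0.802 to 4.54 RPKM in tumors, kept in 7, 0.0507 without Dlx3 KO skin 1) and Fgf1 (-1.15, kept in 2, 0.130 without Dlx3 KO skin 3) fell. In the hedgehog and Notch lists 0 of 11 and 0 of 19 tested genes were called in limma, with 3 and 4 at an unadjusted p under 0.05, and 4 in each list fell without tumor 1.

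Genes of vitamin A handling fell in 3 of 20 genes. Aldh1a1, a retinaldehyde dehydrogenase, was at 17.1, 10.1 and 17.5 RPKM in skin and at 4.06, 0.328, 0.289, 0.668 and 1.43 RPKM in tumors (-3.35 ± 0.52, limma adjusted p = 0.00252, at most 0.0209). Rbp4, which carries retinol in blood, was lost only without Dlx3 KO skin 3 (-2.81, 0.0530 there), and Rarres2, the retinoid-induced chemokine chemerin, was kept in 2 fits (-3.19, 0.138 without Dlx3 KO skin 3). Aldh1a1 and Rbp4 are also made by fat and stroma, whose genes are given next. The nuclear receptor Rora fell in the clock list, with 13.1 to 16.5 RPKM in skin and 2.17 to 10.1 RPKM in tumors (-1.50, adjusted p = 0.0393, kept in 3 fits, 0.144 without Dlx3 KO skin 2).

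The largest falls were in genes of tissue that lies around or below the epidermis. Of 87 skeletal muscle genes 80 fell and 0 rose (median log2 fold change -4.47), and of 28 adipocyte genes 19 fell and 0 rose (median -2.69). Together they are 99 of the 933 fallen genes. The summed level of the muscle list was 12984, 8966 and 19236 RPKM in the skins and 182, 186, 98.2, 75.97 and 1032 RPKM in tumors 1 to 5, so every tumor lay below every skin and tumor 4 was lowest. That of the adipocyte list was 2564 to 5124 RPKM in the skins and 581 to 3296 RPKM in the tumors. These sums overlapped through tumor 3. In 20 of the 28 adipocyte genes, however, every tumor lay below every skin, among them the markers Adipoq, Plin1 and Cidec. Tumor 3 was the lowest tumor in these markers, at 0.473, 0.240 and 0.944 RPKM. The skins had 33.1 to 86.1, 10.99 to 31.6 and 51.4 to 131 RPKM. The overlap of the sum was thus not seen in these markers. Rescaling the libraries without both lists gave 138 risen and 1220 fallen genes.

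**Figure D5:**
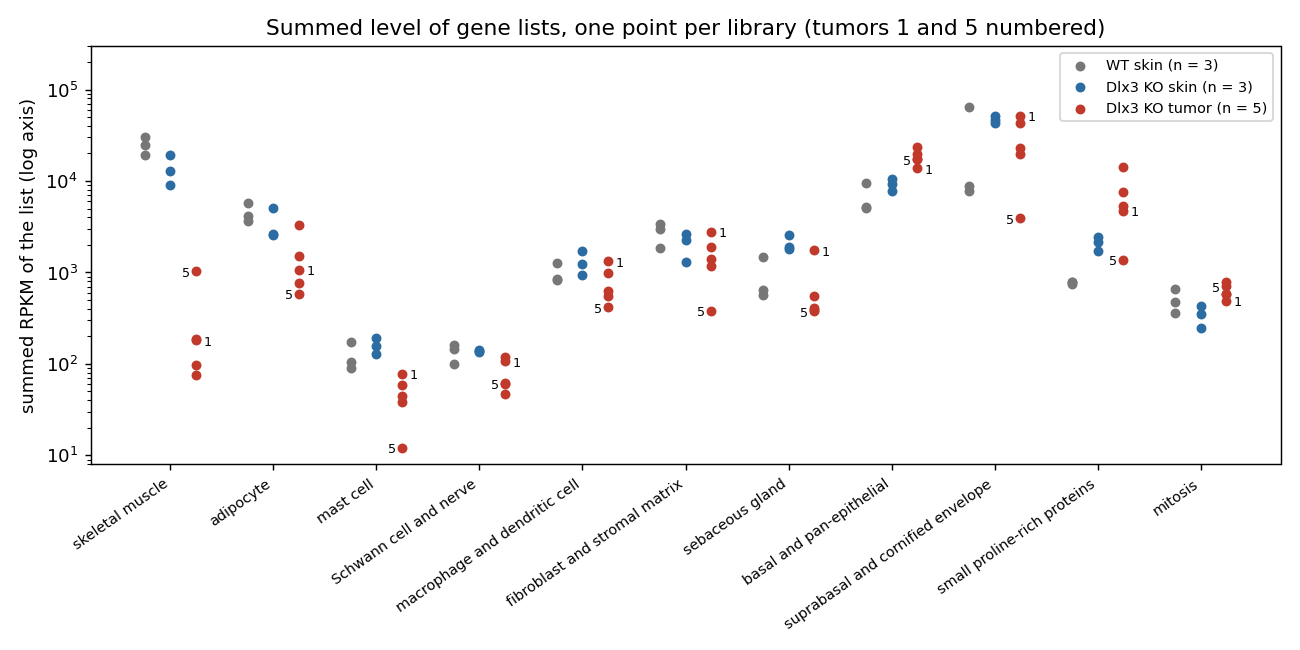
Summed RPKM of 11 gene lists in each library, on a log axis, with numbers on 2 tumors. Muscle transcripts are below all skins in all 5 tumors. Tumor 1 is the highest tumor and tumor 5 the lowest in the sebaceous and cornified lists, both numbered. The summed basal list is higher in all tumors than in the Dlx3 KO skins, though 14 of its 23 tested genes had negative log2 fold changes.

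The 12 largest falls outside these lists were mostly muscle genes too. Jsrp1, of the calcium release unit, fell, with 59.9, 41.3 and 68.3 RPKM in skin and 0.550, 0.479, 0.380, 0.186 and 3.24 RPKM in tumors (-5.56 ± 0.48, limma adjusted p = 6.60e-05, at most 0.000802). Fabp3 (-5.43), the fatty acid-binding protein of heart and muscle, Fhl1 (-5.23) and Pdlim3 (-4.77), LIM proteins of the sarcomere, Trim54 (-4.93), a muscle ubiquitin ligase, and Smtnl1 (-4.78), a smoothelin relative, fell in the same way. So did Eef1a2 (-5.01), the elongation factor of muscle and neurons, Adssl1 (-4.63), the muscle adenylosuccinate synthase, Hjv (-4.59), hemojuvelin, and Cox7a1 (-4.43), the muscle form of a cytochrome oxidase subunit. These 10 all held in the 8 fits. The largest of the 12 was Retnla (chromosome 16, 48842551 to 48844461, plus strand), a resistin-like protein of fat and alternatively activated macrophages, at 99.6, 366 and 339.6 RPKM in skin and 44.2, 1.23, 0.522, 0.615 and 19.4 RPKM in tumors (-5.70 ± 1.25, adjusted p = 0.0205, kept in 5, 0.101 without Dlx3 KO skin 3). The 6 smallest p among all falls were of Ctxn3, Myf6, Myoz2, Hspb7, Atcayos and Abra. Myf6 is a myogenic transcription factor, at 8.36, 6.77 and 11.5 RPKM in skin and 0.103, 0.118, 0.0564, 0.0663 and 0.509 RPKM in tumors (-3.81 ± 0.26, adjusted p = 4.15e-05, at most 0.000564), and Myoz2, Hspb7 and Abra are known from striated muscle.

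Myoz2, a sarcomere protein, was at 24.4, 12.9 and 32.7 RPKM in skin and at 0.195, 0.153, 0.107, 0.0157 and 0.619 RPKM in tumors. Its promoter holds a match to a loose pattern for the site of MEF2, a muscle transcription factor. The pattern is CTA and TAG with 4 unspecified bases between them, so a match need not be a MEF2 site. The match is in capitals, at position -33 (RefSeq, GRCm38.p6, 250 bases before to 50 after the start).
Myoz2 (chr3:123034938-123035237, minus strand): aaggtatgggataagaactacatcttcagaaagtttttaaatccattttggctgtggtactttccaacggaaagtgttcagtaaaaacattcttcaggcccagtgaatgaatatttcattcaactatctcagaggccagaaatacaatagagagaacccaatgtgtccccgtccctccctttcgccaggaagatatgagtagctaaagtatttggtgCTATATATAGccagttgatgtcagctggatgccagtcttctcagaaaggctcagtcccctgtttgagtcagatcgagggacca
The loose pattern, which reads alike on both strands, was in 8 of 55 promoters matched for the 80 fallen muscle genes (14.5%). It was in 5.90% of those of the other fallen genes, in 3.76% of those of all tested genes and in 4.23% of all promoters.

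Genes of energy metabolism fell in 2 of 33 for glycolysis and hypoxia and in 1 of 50 for oxidative phosphorylation. Neither share was above the 6.56% of all tested genes. Pfkm, the muscle form of phosphofructokinase, fell (50.6 to 138 RPKM in skin, 3.96 to 9.30 RPKM in tumors, log2 fold change -3.84, limma adjusted p = 0.000120, at most 0.00136) and Aldoa, aldolase A, with 847 to 1482 RPKM in skin and 348 to 573 RPKM in tumors (-1.34, adjusted p = 0.0158, kept in 6, 0.101 without Dlx3 KO skin 3), while the other 31 tested genes of glycolysis and hypoxia did not pass. In the list of oxidative phosphorylation 49 of 50 had negative log2 fold changes, close to all genes in size (median -0.29, -0.01 and -0.14 with median-ratio and quantile scaling), and 1 fell, Sdhb (-0.91, kept in 3, 0.149 without Dlx3 KO skin 3). Slc25a4, the ADP/ATP carrier of muscle, fell (279 to 493 RPKM in skin, 81.7 to 108 RPKM in tumors, adjusted p = 0.000266), and the tropomyosins Tpm1 (-2.51) and Tpm2 (-2.22) fell as well, all 3 in every fit. The part of the muscle transcripts in these falls was not tested. Ribosomal protein genes gave 1 risen of 50 and 0 fallen (median 0.23).

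Other cell types of whole skin were lower in parts. In the Schwann cell and nerve list 8 of 17 fell, among them Ncmap, a protein of noncompact myelin (0.232 to 0.458 RPKM in tumors against at least 1.15 RPKM in skin, -1.19 ± 0.19, limma adjusted p = 0.00260, at most 0.0216), and Pllp, plasmolipin of the myelin sheath (1.05, 0.857 and 1.14 RPKM in skin, 0.282, 0.0781, 0.0467, 0.143 and 0.129 RPKM in tumors, -1.26 ± 0.23, adjusted p = 0.00646, at most 0.0481), and 1 rose, the adhesion molecule Cadm4 (1.77, adjusted p = 0.0270, kept in 4, weakest 0.107), which epithelia also express. Macrophage and dendritic cell genes fell in 10 of 28, with Adgre1, which encodes F4/80, at 3.72 to 6.59 RPKM in skin and 0.733 to 4.72 RPKM in tumors (kept in 1, weakest 0.204), Gpnmb at 25.8 to 38.3 RPKM in skin and 7.75 to 19.5 RPKM in tumors (kept in 4, 0.116 without Dlx3 KO skin 2) and Csf1r, which did not pass (adjusted p = 0.0533). The count was 17 without tumor 1 and 2 without tumor 5. Arg1, which alternatively activated macrophages also make, was the 1 risen member of that list, in which 24 had negative log2 fold changes. Mast cell genes fell in 5 of 12 (7 without tumor 1), with Mcpt4 at 44.8, 57.02 and 72.02 RPKM in skin and 29.5, 15.02, 9.78, 14.8 and 3.13 RPKM in tumors (-2.24, kept in 4, 0.130 without Dlx3 KO skin 3). Melanocyte genes fell in 3 of 9 (5 without tumor 1), led by Pmel (10.1 to 34.6 RPKM in skin, 2.09 to 5.93 RPKM in tumors, kept in 7, 0.0589 without Dlx3 KO skin 3).

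Endothelial and stromal genes gave few calls with all 8 libraries and more without tumor 1. Of 25 endothelial genes 24 had negative log2 fold changes and 10 lay lower in every tumor than in every skin. Of 37 stromal genes 31 had negative log2 fold changes and 2 lay lower without overlap. Over all tested genes 14.8% lay lower without overlap and 6.56% fell, and with all libraries the stromal genes were below both shares. The falls numbered 12 endothelial and 12 stromal without tumor 1, and 7 and 24 within the first run against 0 and 0 within the second (limma). Of 25 endothelial genes 3 fell, the vessel receptor Tek with 2.11 to 3.71 RPKM in skin and 0.533 to 1.42 RPKM in tumors (limma adjusted p = 0.00895, lost only without Dlx3 KO skin 3 at 0.0689), with Lyve1 (kept in 3, 0.119 without Dlx3 KO skin 2) and Flt1 (kept in 1, 0.182 without Dlx3 KO skin 1). Of 37 stromal genes 2 fell, Ogn (8.36 to 20.5 RPKM in skin, 0.394 to 5.51 RPKM in tumors, kept in 6, 0.107 without Dlx3 KO skin 3) and Fap (-1.78, kept in 2, 0.144 without Dlx3 KO skin 3), and Col1a1 ranged from 140.5 to 329 RPKM in skin and from 55.8 to 455 RPKM in tumors (adjusted p = 0.936). In the lymphocyte and neutrophil lists 0 of 19 and 0 of 13 passed in limma, where 0 and 2 had an unadjusted p under 0.05, while 1 lymphocyte gene fell and 1 neutrophil gene rose without tumor 1. S100a8 and S100a9, made by neutrophils and by stressed keratinocytes, were at 363, 506 and 909 RPKM in skin and at 1606, 4090.5, 868, 2157 and 555 RPKM in tumors and at 386, 418 and 736 RPKM in skin and at 1395, 3277, 514, 1807 and 379 RPKM in tumors (adjusted p = 0.266 and 0.409). Tumors 1, 2 and 4 lay above the skins in both, tumor 3 among them in both, and tumor 5 among them in S100a8 and just below them in S100a9.

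The hair follicle gave 6 fallen genes of 57 of shaft and root sheath, beside the 6.56% of all tested genes. The count was 8 without tumor 1 and 2 without tumor 5. With median-ratio scaling, quantile scaling and run as a term it was 3, 2 and 1. In 19 of the 57 the log2 fold change was positive. Krt36, a hair keratin, fell, with 4.36, 21.9 and 15.3 RPKM in skin and 2.45, 0.691, 0.733, 0.593 and 1.02 RPKM in tumors (-3.01 ± 0.49, limma adjusted p = 0.00363, at most 0.0298). Krt31 (-2.86), Krt33b (-2.68) and Krt84 (-1.76) were kept in 2, 3 and 2 fits, with 0.191 and 0.168 without Dlx3 KO skin 2 and 0.185 without Dlx3 KO skin 3. The list as a whole did not separate the groups. Krt25 (1.18) and Tchh (-1.06) overlapped and did not pass (limma adjusted p = 0.673 and 0.592). The summed level of the list ran from 252 to 2128 RPKM in the skins and from 109 to 423 RPKM in the tumors. Of 19 sebaceous genes 18 had negative log2 fold changes (median -1.30), and 13 fell without tumor 1, 11 within the first run and 0 within the second. With all libraries 1 of them fell, Scd1, a fatty acid desaturase (225, 230.4 and 423 RPKM in skin, 139, 66.8, 32.5, 26.3 and 22.1 RPKM in tumors, adjusted p = 0.0249, kept in 2, 0.129 without Dlx3 KO skin 3).

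The tumors did not depart from skin to the same degree. Tumor 1 was the lowest tumor in 91 of the 142 risen genes (64.1%) and the highest in 632 of the 933 fallen genes (67.7%), against 10.8% lowest and 46.1% highest over all tested genes. Tumor 3 was the highest in 75 risen genes (52.8%, against 17.2% of all). Tumor 5, the lowest tumor in 51.1% of all tested genes, was the lowest in 29.5% of the fallen genes and in 16.9% of the risen. Tumor 1 thus lay on the skin side in both directions. These ranks describe genes that were called with the same tumors.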

How the data were processed

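Libraries were made from total RNA after removal of ribosomal RNA and read from 1 end for 50 bases, per the labels' protocols. The reads passed through bcl2fastq 2.20.0.422, then TopHat2 2.1.1 with Bowtie, on the mm10 genome, per the submitters' processing notes. The RPKM values were computed per gene by the authors with Partek, per the file headers, and replicates were not pooled. The count of alignments per library is from a sample sheet the authors deposited, which also names the run. In the authors' deposited ANOVA table the group means are on the log2 scale, with an offset. That table's p-value and q-value come from the authors' ANOVA, whose terms the file headers do not state. Its ratio of group means and its signed fold score are linear, per the file headers, and the score was not used here. No read counts of genes are used here. Precision was judged from the spread between libraries, and RPKM as shares of a library move with abundant transcripts.

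Here log2(RPKM + 0.5) was fitted by limma (version 3.58.1, under R version 4.3.3, with eBayes set to trend and robust) over all 3 groups. Tests were two-sided, with Benjamini-Hochberg adjustment over the 14233 genes that averaged 0.5 RPKM or more, and a threshold of 0.05. Genes of 62 lists were counted. Named genes were, per direction, the 12 with the largest changes and the 8 with the highest levels among called genes without overlap, the 6 with the smallest p, and up to 4 per list. Falls were ranked without the muscle and adipocyte lists, except by p. Some genes that this rule selects are not reported here. Other genes were chosen after their values were seen. The comparison, members and lists were chosen with earlier results of these data known. The model was tested on simulated data. Promoters are from RefSeq on GRCm38.p6 (250 bases before to 50 after the start), positions from GENCODE M21. Tables and figures used Python 3.11.15, numpy 2.4.6, pandas 2.3.3 and matplotlib 3.10.9. The replicate numbers of tumors and skins were not taken as pairs, since same-numbered libraries deviated with correlations of 0.00853, -0.00296 and -0.108.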

Additional observations from a re-analysis of the deposited data

Results flagged for a closer look

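In 5 of 44 named genes and in the summed level of 4 of 62 lists, 1 tumor stood apart from the other 4 by Dixon's criterion for 5 samples (a gap that takes up most of the range), which chance meets in about 1 of 20 groups. Tumor 5 was the highest tumor in 4 muscle genes that fell, with 3.24 RPKM of Jsrp1, 1.58 RPKM of Hjv, 0.454 RPKM of Ctxn3 and 0.509 RPKM of Myf6, all far below the skins. Atcayos, an antisense gene, was highest in tumor 3 at 0.222 RPKM. For the sebaceous gland list the sum was 1747 RPKM in tumor 1 and 377 to 548 RPKM in tumors 2 to 5. The Dlx3 KO skins had sums of 1810.3 to 2589 RPKM, so tumor 1 had nearly the sebaceous level of skin. Tumor 5 was lowest in the lists of epidermal lipid barrier enzymes (323 RPKM), desmosomes and other junctions (1423 RPKM) and retinoid metabolism (641 RPKM). Over all genes its summed RPKM was also lowest, at 350852, against 441177 to 509388 in the other libraries compared. The list sums were not rescaled for this. The cause was not tested.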

How the results depend on the processing

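The counts of 142 risen and 933 fallen genes (1075) depended most on how libraries were weighted or left out. Library weights gave 1167 risen and 4802 fallen (5969). Leaving out 1 library gave 35 to 345 risen and 312 to 2522 fallen (347 to 2867), and leaving out tumors 1 and 5, chosen after seeing the data, gave 350 and 2037 (2387). The first run alone gave 1468 fallen (1627 in all) and the second 11 and 193 (204). The tumors and Dlx3 KO skins with high Xist, with all WT skins kept, gave 40 and 325 (365). With replicate number as a block 64 rose and 293 fell (357), but the numbers do not pair the libraries. Median-ratio and quantile scaling gave 342 and 487 risen, and no filter on low values 85. The authors' deposited table, at q under 0.05, had 59 risen and 502 fallen among its 24973 genes and 49 and 427 (476) among the genes tested here, of which 47 and 414 were shared. The cause of these shifts was not tested beyond the fewer samples in some fits. Pseudocounts of 0.1 and 1, a mean of at least 2 RPKM, limma without trend and robust, run as a term, and the 8 libraries alone kept the total within 1.5 times. The genes called were less stable than the total. Of the 142 rises and 933 falls, 95 and 693 were kept with run as a term, and 92 and 662 with the 8 libraries alone.

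Among the genes named here, log2 fold changes reversed in the first run alone for S100a8 (-0.29), Hbb-bs (-0.51), Hbb-bt (-0.36), Hba-a2 (-0.48), Hba-a1 (-0.76) and Krt16 (-0.40), and in the second alone for Jchain (0.061) and Dlx3 (0.19), none of them called. The 5 tumors and 3 skins limit single calls: 75 of the 142 rises and 426 of the 933 falls were kept in fewer than 4 of the 8 fits that left out 1 library. List medians that changed sign with a scaling are not given a direction in the text.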

Other observations

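Among genes outside the lists, 2 groups were looked at after their values were seen, so their counts are descriptions. Of 53 tested histone genes 5 rose in tumors, Hist1h2an, Hist1h2ae, Hist1h2ad, Hist4h4 and Hist1h2ag, and 1 fell, Hist1h4h (limma, adjusted p under 0.05), while 41 had positive log2 fold changes (median 0.46). Their summed level was 260.5 to 327 RPKM in the Dlx3 KO skins and 405 to 574 RPKM in the tumors, which did not overlap. The Dlx3 KO skin means of Hist4h4 and Hist1h2ag, 0.359 and 0.370 RPKM, were below the filter of 0.5 RPKM. Most replication-dependent histone transcripts lack a poly(A) tail and are kept by libraries made without poly(A) selection, and copies within the clusters are near identical.

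Of 15 tested imprinted genes 4 fell and 0 rose. H19, a noncoding RNA of growth control, fell with 129.7, 55.6 and 184 RPKM in the 3 skins and 2.83 to 8.002 RPKM in tumors (-4.13 ± 0.47, limma adjusted p = 0.000260, at most 0.00263 without 1 library). Grb10, an adaptor that restrains growth factor receptors (-1.48, adjusted p = 0.0248, kept in 4 of 8 fits, weakest 0.137), and Sgce, a sarcoglycan (-1.71, adjusted p = 0.0490, kept in 1, weakest 0.221), fell beside Cdkn1c. Muscle also expresses H19 and Sgce, and the part of the lower muscle transcripts in their falls was not tested.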
